A study of Mus musculus with 4 samples.

Results

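The genes of the cytosolic ribosomal proteins were examined in whole cortex of *P4htm*-/- and WT mice that had undergone permanent middle cerebral artery occlusion (MCAO) 24 h earlier. Members were the probe sets that name a single gene whose symbol begins with Rpl or Rps and a digit, or with Rplp or Rpsa, without the S6 kinase genes, binding protein genes and pseudogenes that share these letters. Where several probe sets measured a gene, the one with the highest mean was kept. The rule gave 49 genes out of 18194 on the array, 26 of the large and 23 of the small subunit. The *P4htm*-/- mice lack P4H-TM, a transmembrane prolyl 4-hydroxylase. All mice were C57BL/6J, were 3 months old, and had the left artery occluded, so that the contralateral side is the uninjured right cortex of an operated animal and not a naïve brain. The 4 conditions were *P4htm*-/- ipsilateral, *P4htm*-/- contralateral, WT ipsilateral and WT contralateral cortex. The RNA of 4 mice was pooled for each and hybridized to 1 Affymetrix mouse expression array. No condition has a second array, so a difference between conditions cannot be told apart from a difference between arrays, and no test was made. Because whole cortex was used, more cells of a type cannot be told apart from more RNA per cell.

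The values are on a log2 scale after robust multiarray averaging (RMA), which brings all arrays to a common distribution, so a difference of 1 is a doubling. *P4htm* itself read 8.23 and 8.27 on the *P4htm*-/- ipsilateral and contralateral arrays, against 10.02 and 10.03 on the WT ipsilateral and contralateral arrays. Whether its probes lie in the deleted part was not examined. The medians over all probe sets differed by at most 0.02 between arrays. Between 59.2% and 59.8% of the probe sets were above the background limit of 4.78, the level under which 95% of the values of 83 chemosensory receptor probe sets fell. The receptor probe sets differed between arrays with an SD of 0.178 to 0.211. Probe sets of the same ribosomal protein gene differed with an SD of 0.062 to 0.17, over 66 probe sets of 21 members. Both measure technical scatter and hold no variation between mice. A gene is called past 1.2-fold when its log2 difference is beyond 0.263, and past 1.5-fold when it is beyond 0.585.

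Ribosomes are built in the nucleolus from ribosomal RNA and one copy of nearly every ribosomal protein, and the small subunit reads the mRNA while the large subunit forms peptide bonds. Because the proteins are needed in equal numbers, their genes are expressed together in all cells, and their mRNAs start with a run of pyrimidines that places their translation under the control of mTOR. Protein synthesis in the brain falls early after the loss of blood flow and returns only where tissue survives, while reactive glia and invading leukocytes are active in protein synthesis.

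Of the 49 genes, 46 were above background on at least 1 array, 24 of the large and 22 of the small subunit. The median over these members was 12.65 in *P4htm*-/- ipsilateral and 12.705 in *P4htm*-/- contralateral cortex, against 12.915 in WT ipsilateral and 12.685 in WT contralateral cortex. For the large subunit it was 12.5 in *P4htm*-/- ipsilateral and 12.51 in *P4htm*-/- contralateral cortex, against 12.795 in WT ipsilateral and 12.505 in WT contralateral cortex. For the small subunit it was 13.055 in *P4htm*-/- ipsilateral and 13.11 in *P4htm*-/- contralateral cortex, against 13.315 in WT ipsilateral and 13.095 in WT contralateral cortex. In both subunits the WT ipsilateral array was the high one. The 3 members that did not exceed background were *Rpl3l* and *Rpl39l*, copies of *Rpl3* and *Rpl39* known from muscle and testis, and *Rps16*, a universal component of the small subunit. *Rps16* is measured under the rule by 1 probe set only, which read 3.08 and 3.23 in *P4htm*-/- ipsilateral and contralateral cortex, and 3.27 and 3.32 in WT ipsilateral and contralateral cortex. *Rpl3* and the stalk gene *Rplp1* have no probe set that names them alone.

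**Figure D1:**
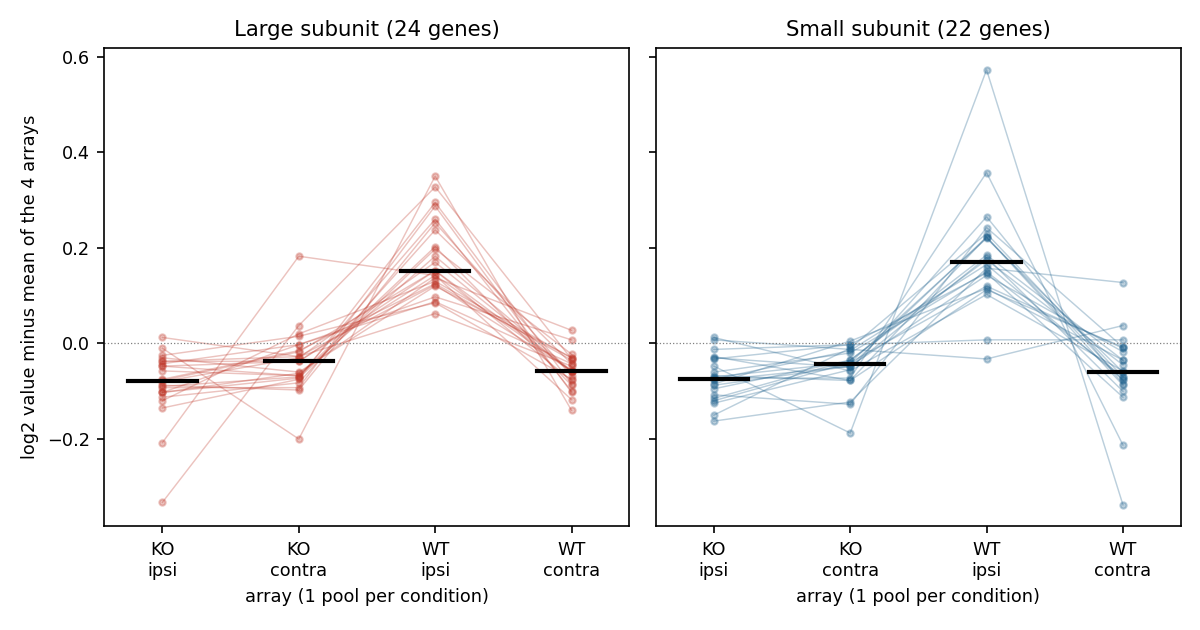
Log2 value of each ribosomal protein gene above background minus the mean of its 4 arrays (vertical axis) on the *P4htm*-/- (KO) and WT arrays (horizontal axis), for 24 large subunit and 22 small subunit genes. Each thin line is 1 gene and each black bar the median, and the bars of the WT ipsilateral array lie above 0 while those of the other 3 arrays lie below it.

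The WT ipsilateral array had the highest value of the 4 arrays for 43 of the 46 members, or 93.5%, where 29.6% of all genes above background had their highest value there. The *P4htm*-/- ipsilateral array was highest for 0 members, where 18% of all genes peaked there. The 3 exceptions were *Rpl14*, which was highest in *P4htm*-/- contralateral cortex as were 18.3% of all genes, *Rps28*, which was highest in WT contralateral cortex as were 29.2% of all genes, and *Rps29*, which was tied between both WT arrays. On the other 3 arrays the members differed little. For 34 of the 46 members these 3 values lay within 0.1 of each other, as they did for 4233 of 13448 genes. The median range of the 3 values was 0.06 over the members, against 0.15 over all genes. Genes of like level were not compared here. The WT ipsilateral value lay above the highest of the other 3 by a median of 0.185, against -0.09 over all genes. Relative to the mean of the 4 arrays, the members had a median of -0.08 in *P4htm*-/- ipsilateral, -0.04 in *P4htm*-/- contralateral, 0.16 in WT ipsilateral and -0.06 in WT contralateral cortex.

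To describe the effect of ischemia in WT mice, the ipsilateral cortex was set against the contralateral cortex. The ribosomal protein genes were higher on the injured side, with a median log2 difference of 0.225, where the median of 13320 genes above background was -0.02. Of the 46 members, 44 were above 0, where 45% of all genes were. *Rps28* was below 0, where 52.9% of all genes were, and *Rps29* was at 0. Past 1.2-fold, 16 members were higher and 0 were lower, where 12.4% of all genes were higher and 9.11% were lower. Past 1.5-fold, 1 member was higher and 0 were lower, where 2.42% of all genes were higher and 0.443% were lower. The large subunit had a median of 0.225, with 24 of 24 genes above 0 and 8 past 1.2-fold. The small subunit had a median of 0.23, with 20 of 22 above 0 and 8 past 1.2-fold, and its median was 0.132 with the mean of each gene's probe sets.

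Among the large subunit genes *Rplp0*, which encodes the base of the stalk that recruits elongation factors, had the highest difference. It read 12.58 in WT ipsilateral and 12.09 in WT contralateral cortex, a difference of 0.49 or 1.40-fold. *Rplp2*, an acidic protein of the same stalk, read 13.73 in WT ipsilateral and 13.58 in WT contralateral cortex. Both stalk genes were thus higher on the WT injured side, *Rplp0* past 1.2-fold and *Rplp2* not. *Rpl22*, which encodes an RNA-binding protein of the large subunit, read 12.63 in WT ipsilateral and 12.24 in WT contralateral cortex. Its other 2 probe sets gave differences of 0.40 and -0.23, and their mean with the first, 0.187, was not past 1.2-fold. *Rpl35*, whose protein lies near the exit of the nascent chain, read 13.49 in WT ipsilateral and 13.11 in WT contralateral cortex. *Rpl10a*, which encodes the protein of the mobile L1 stalk, read 12.85 in WT ipsilateral and 12.49 in WT contralateral cortex. These 3 genes differed by 0.39, 0.38 and 0.36. *Rpl12*, whose protein sits at the base of the elongation factor stalk, also differed by 0.36, at a low level of 6.66 in WT ipsilateral and 6.30 in WT contralateral cortex. The lowest differences of the large subunit were those of *Rpl37*, at 0.09, and of *Rpl4*, which lines the exit tunnel, and *Rpl37a*, both at 0.11.

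Among the small subunit genes *Rps27l*, a copy of *Rps27* known as a target of p53, differed most, with 10.38 in WT ipsilateral and 9.47 in WT contralateral cortex, or 1.88-fold. It was the member past 1.5-fold. *Rps25*, needed for initiation at some viral internal entry sites, was just under that limit, with 8.27 in WT ipsilateral and 7.70 in WT contralateral cortex. *Rps19*, the gene most often mutated in Diamond-Blackfan anemia, read 12.82 in WT ipsilateral and 12.47 in WT contralateral cortex. *Rps7* read 13.51 on the WT injured side and 13.20 on the WT uninjured side. *Rps3*, at the entry of the mRNA channel, read 13.04 on the WT injured side and 12.74 on the WT uninjured side. All of these were past 1.2-fold, although *Rps7* was not when its probe sets were averaged, at 0.21. The members next to the 1.2-fold limit were *Rpl22l1*, *Rps2* and *Rps9* at 0.28, just beyond it. *Rpl14* and *Rpsa*, the precursor gene of the laminin receptor, were just within it at 0.26. The other probe sets of *Rps9* gave 0.06 and, under background, -0.06, and the mean of all was 0.093. *Rps6*, whose protein the S6 kinases phosphorylate, read 8.95 in WT ipsilateral and 8.70 in WT contralateral cortex and so did not pass the limit. *Rps29* had 14.31 on both WT arrays, and *Rps28* had 13.80 in WT ipsilateral and 13.87 in WT contralateral cortex. The next lowest was *Rps4l* at 0.03. The other 2 probe sets of *Rps29* gave differences of -0.09 and -0.11, and those of *Rps28* gave 0.11 and 0.07.

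The same comparison in *P4htm*-/- mice gave a median of -0.03 for the members, where the median of 13309 genes was -0.02. Of the 46 members, 13 were above 0 and 30 below, where 41.7% of all genes were above and 54.7% below. Past 1.2-fold 0 members were higher and 2 were lower, where 5.66% of all genes were higher and 4.4% were lower. Both subunits had a median of -0.03, with 16 of 24 large subunit genes and 14 of 22 small subunit genes below 0. The 2 members past 1.2-fold were *Rpl14* and *Rpl12*. *Rpl14* read 6.54 in *P4htm*-/- ipsilateral and 6.93 in *P4htm*-/- contralateral cortex. *Rpl12* read 6.00 in *P4htm*-/- ipsilateral and 6.37 in *P4htm*-/- contralateral cortex. Each rests on 1 probe set of low value, and each pointed the opposite way in WT mice. The next lowest were *Rpl7l1* and *Rps3*, both at -0.14, and *Rpl37* at -0.10. The highest were again *Rplp0*, with 12.22 in *P4htm*-/- ipsilateral and 12.03 in *P4htm*-/- contralateral cortex, and *Rps27l*, with 9.76 in *P4htm*-/- ipsilateral and 9.62 in *P4htm*-/- contralateral cortex. They were followed by *Rps4x* at 0.07, *Rps26* at 0.05 and *Rpl4* at 0.04. *Rpl35*, *Rpl22* and *Rps25*, which stood among the highest in WT mice, differed by -0.06, 0.00 and 0.00.

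**Figure D2:**
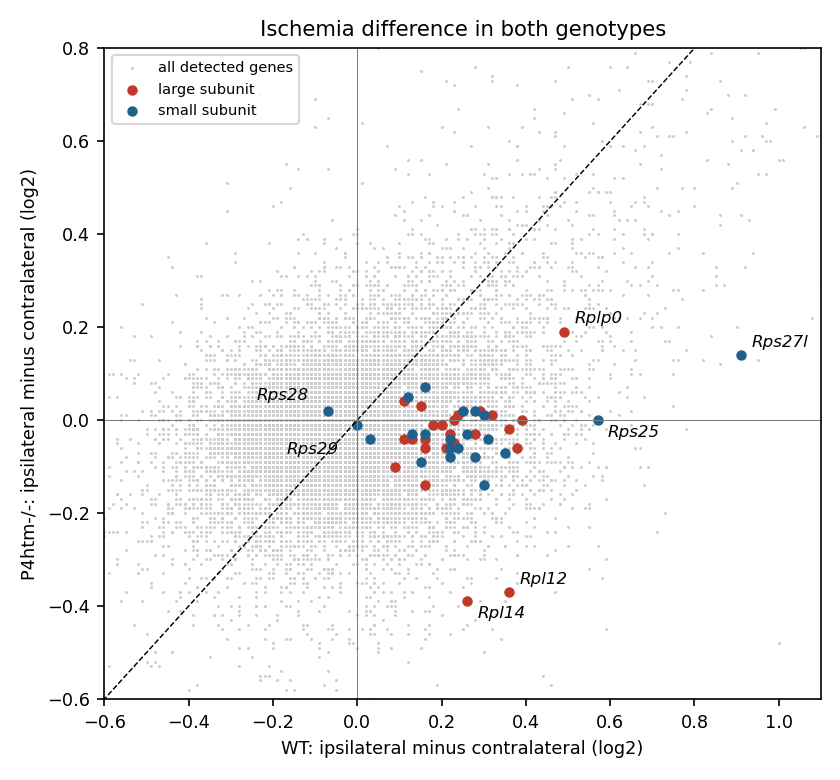
Log2 difference between ipsilateral and contralateral cortex in WT (horizontal axis) and *P4htm*-/- mice (vertical axis) for large subunit (red) and small subunit genes (blue) and all genes above background (grey). The dashed line marks equal differences, and 207 of 13448 grey genes lie outside the axes. Nearly all members sit right of 0 and along the horizontal line, with *Rps27l* and *Rplp0* above it and *Rpl12* and *Rpl14* below it.

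These 2 differences share no array, although both sides of a genotype come from the same mice. Across the 46 members they were related by a Pearson r of 0.166 and a Spearman rho of 0.043, against 0.59 and 0.27 across 13448 genes. Genes are not independent replicates, and these values are a description. *Rps27l* and *Rplp0*, the 2 highest members of the *P4htm*-/- comparison, were also among the 3 highest of the WT comparison.

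The *P4htm*-/- mice had lower values of the ribosomal protein genes in the injured cortex than the WT mice. This comparison uses the WT ipsilateral array again, so it is no second measurement of the pattern above. The median was -0.245, where the median of 13363 genes was -0.01, and 45 of 46 members were below 0 and 1 above, where 50.8% of all genes were below and 46.9% above. Past 1.2-fold 20 members were lower and 0 were higher, where 10.9% of all genes were lower and 4.71% were higher. Past 1.5-fold 2 members were lower and 0 were higher, where 0.576% of all genes were lower and 0.0898% were higher. The large subunit had a median of -0.245, with 24 of 24 genes below 0, and the small subunit one of -0.255, with 21 of 22 below 0. The exception was *Rps28*, with 13.84 in *P4htm*-/- ipsilateral cortex, against 13.80 in WT ipsilateral cortex. The 2 members past 1.5-fold were *Rpl12* and *Rps27l*. *Rpl12* had 6.00 in *P4htm*-/- ipsilateral cortex, against 6.66 in WT ipsilateral cortex, and *Rps27l* had 9.76 in *P4htm*-/- ipsilateral cortex, against 10.38 in WT ipsilateral cortex. *Rpl35*, with 13.06 in *P4htm*-/- ipsilateral cortex, against 13.49 in WT ipsilateral cortex, and *Rps25*, with 7.84 in *P4htm*-/- ipsilateral cortex, against 8.27 in WT ipsilateral cortex, both differed by -0.43. *Rps19* and *Rps3* followed at -0.39 and -0.38, and *Rpl22* at -0.38, although *Rps3* had -0.22 by its plain probe set. The stalk gene *Rplp0* was at -0.36 and *Rps6* at -0.35, both past 1.2-fold, while *Rpsa* at -0.18 and *Rplp2* at -0.15 were not. *Rps24* at -0.27 lay just beyond the limit, with -0.14 by its plain probe set, and *Rpl41*, *Rpl8* and *Rpl7l1* at -0.25 just within it. The smallest differences were those of *Rps29* at -0.02, *Rpl4* at -0.05, *Rps4x* at -0.09 and *Rpl27a* at -0.11.

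On the uninjured side the genotypes differed little. The median of *P4htm*-/- minus WT contralateral cortex was 0.02, where the median of 13207 genes was -0.01. Of the members 28 were above 0 and 15 below, where 43.1% of all genes were above and 53.1% below. Past 1.2-fold 1 member was higher and 0 were lower, where 3.96% of all genes were higher and 3.8% were lower. The large subunit had a median of 0.02 and the small subunit one of 0.015. The member past the limit was *Rpl14*, at 6.93 in *P4htm*-/- contralateral and 6.63 in WT contralateral cortex. It was followed by *Rps27l* at 0.15, whose other probe sets gave 0.00 and 0.06. Next were *Rps25* at 0.14, *Rpsa* at 0.11 and *Rpl27a* at 0.09. The lowest was *Rps4l*, a copy of *Rps4x*, with 9.0 in *P4htm*-/- contralateral and 9.25 in WT contralateral cortex. *Rps6* at -0.12, *Rpl37a* at -0.09, *Rps26* at -0.07 and *Rplp0* at -0.06 came next.

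The difference between genotypes in the response to ischemia combines all 4 arrays. The ipsilateral minus contralateral difference was smaller in *P4htm*-/- than in WT mice for 45 of 46 members, where it was smaller for 48.1% and larger for 49.8% of all genes. The median was -0.265, where that of 13448 genes was 0.00. Past 1.2-fold 23 members were lower and 0 were higher, where 13.5% of all genes were lower and 8.44% were higher, and past 1.5-fold 3 were lower and 0 were higher, where 1.35% of all genes were lower and 0.528% were higher. These 3 were *Rps27l* at -0.77, *Rpl12* at -0.73 and *Rpl14* at -0.65, and *Rps25* at -0.57 lay just within the limit. *Rpl35* and *Rps3* followed at -0.44. *Rps28*, at 0.09, was the exception, and *Rps29* at -0.01 and *Rpl4*, *Rps26* and *Rps4l* at -0.07 lay nearest to it. The medians were -0.26 for the large and -0.27 for the small subunit, and that of the small subunit was -0.167 when probe sets were averaged.

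Several members are copies of better known ribosomal protein genes, and the differences of 4 such pairs were set side by side without comparing levels between genes. *Rps27l* was higher on the WT injured side by 0.91 to 0.99 over its 3 probe sets, and *Rps27*, a zinc finger protein of the small subunit, by 0.30, with 7.12 in WT ipsilateral and 6.82 in WT contralateral cortex. In the *P4htm*-/- mice *Rps27l* differed by 0.14 to 0.24 over the same 3 probe sets. There *Rps27* differed by 0.01, with 6.83 in *P4htm*-/- ipsilateral and 6.82 in *P4htm*-/- contralateral cortex. *Rpl22l1* and the probe set used for *Rpl22* were both highest on the WT ipsilateral array. *Rpl22l1* read 12.45 and 12.48 in *P4htm*-/- ipsilateral and contralateral cortex, and 12.80 and 12.52 in WT ipsilateral and contralateral cortex. *Rpl22* read 12.25 on both *P4htm*-/- arrays, against 12.63 and 12.24 on the WT ipsilateral and contralateral arrays. *Rpl7l1*, a nucleolar relative of *Rpl7*, read 8.33 and 8.47 in *P4htm*-/- ipsilateral and contralateral cortex, and 8.58 and 8.42 in WT ipsilateral and contralateral cortex. Its other 2 probe sets had WT differences of 0.08 and 0.11, and *Rpl7* had 0.23. *Rps4l* differed little between the sides, at -0.04 in *P4htm*-/- and 0.03 in WT mice. It read lower on both *P4htm*-/- arrays, with 8.96 and 9.0 in ipsilateral and contralateral cortex, than on both WT arrays, with 9.28 and 9.25. Its relative *Rps4x*, which lies on the X chromosome, read 13.25 and 13.18 in *P4htm*-/- and 13.34 and 13.18 in WT ipsilateral and contralateral cortex, so that the genotype difference of *Rps4l* was not seen in it.

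**Figure D3:**
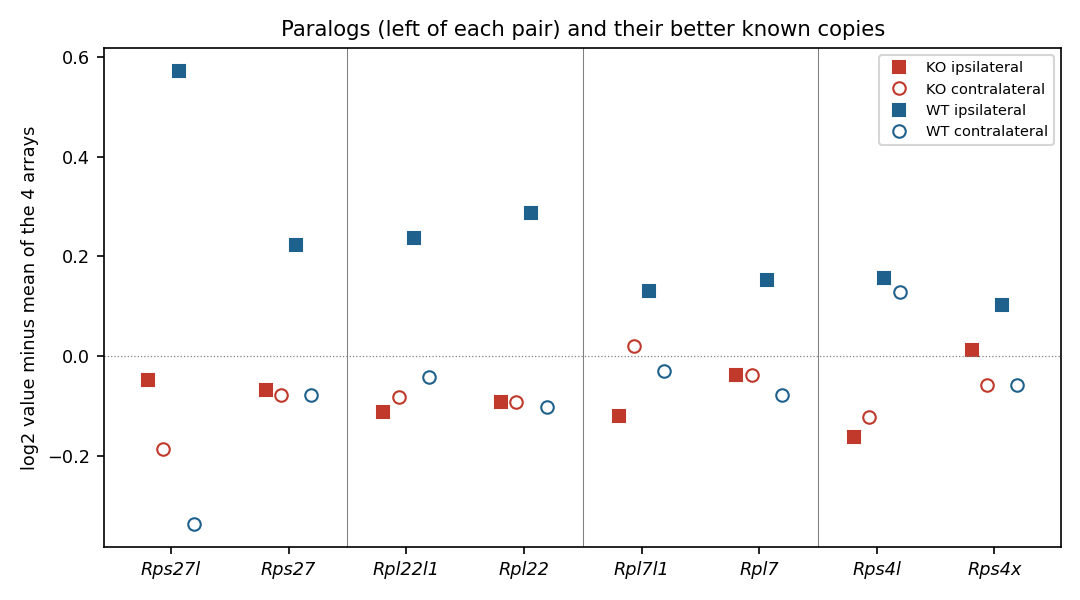
Log2 value minus the mean of the 4 arrays (vertical axis) for 4 pairs of a copy and its better known relative (horizontal axis). *P4htm*-/- (KO) is red and WT blue, with filled squares for ipsilateral and open circles for contralateral cortex, and a symbol stands for the pool of 1 condition. The WT ipsilateral square of *Rps27l* lies farthest from 0, and *Rps4l* separates the genotypes rather than the sides.

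Ribosomal protein genes have many processed pseudogenes, and a good part of their probe sets name several genes. Such probe sets were left out of the members and give a further view of the same mRNAs. There were 110, of which 100 were above background, and they name 46 ribosomal protein genes, 31 of them outside the members. In WT ipsilateral minus contralateral cortex 89 of the 100 were above 0 and the median was 0.18. In *P4htm*-/- mice 74 were below 0 and the median was -0.035. Between genotypes the median was -0.205 in ipsilateral cortex, with 99 of 100 below 0, and 0.01 in contralateral cortex. These probe sets were read on the same 4 arrays, so they add genes but no replicate. *Fau*, which encodes a ubiquitin-like protein fused to the small subunit protein eS30 and falls outside the naming rule, read 13.03 and 13.12 in *P4htm*-/- ipsilateral and contralateral cortex, and 13.33 and 13.08 in WT ipsilateral and contralateral cortex. Over all 91 probe sets of the members above background, 83 were above 0 in the WT comparison, where 45% of all genes were.

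The size of the difference varied with the level. The 21 members with a mean of 13 or more had a median of 0.16 in WT ipsilateral minus contralateral cortex, the 14 members between 10 and 13 one of 0.28, and the 11 members under 10 one of 0.25. For *P4htm*-/- minus WT ipsilateral cortex the medians were -0.20, -0.32 and -0.32. The mean level was related to the WT difference by a Pearson r of -0.277 and a Spearman rho of -0.397 over the 46 members, which share the arrays. Probes near the top of the range of an array respond less, and *Rps29*, *Rpl38*, *Rpl41* and *Rps28*, with values between 13.80 and 14.31, had differences between -0.07 and 0.23. *Rpl41*, at 0.23, lay near the median of all members, 0.225. Whether saturation had a part in the smaller differences of the other genes named was not tested.

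**Figure D4:**
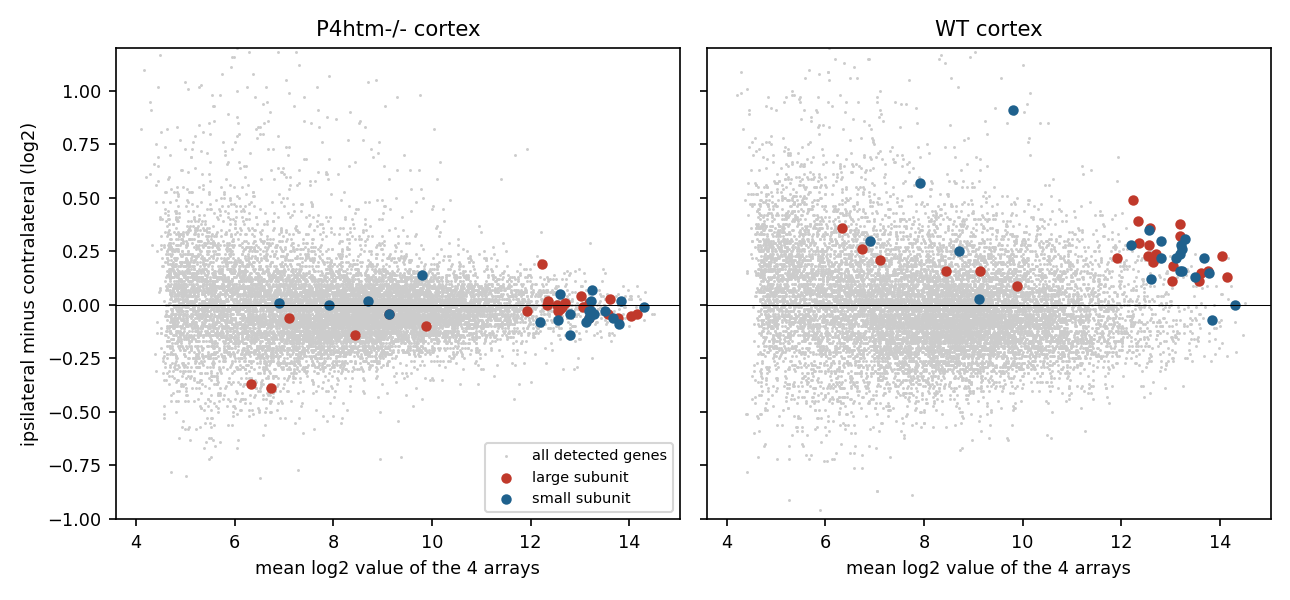
Ipsilateral minus contralateral log2 difference (vertical axis) against the mean log2 value of the 4 arrays (horizontal axis) in *P4htm*-/- (left) and WT cortex (right), for large subunit (red) and small subunit genes (blue) and all genes above background (grey). The medians of the members are -0.03 on the left and 0.225 on the right, and 52 and 81 grey genes lie outside the axes.

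Other properties of the members moved with the same arrays. Ribosomal protein genes are short, with a median genomic span of 3451.5 bases against 23540 bases over all genes above background, and 43 of the 46 lie in the quintile of the shortest genes. In WT ipsilateral minus contralateral cortex the median was 0.07 over the shortest and -0.10 over the longest quintile. In *P4htm*-/- minus WT ipsilateral cortex it was -0.08 over the shortest and 0.07 over the longest quintile. In *P4htm*-/- ipsilateral minus contralateral cortex it was -0.03 over the shortest and -0.01 over the longest quintile. After the median of genes of like span was taken off each difference, the median of the members was 0.15 in WT mice and -0.15 between the genotypes in ipsilateral cortex, with 40 of 46 above 0 and 43 of 46 below 0. Level did not run the same way, since the quintile of the highest level, which holds 36 members, had a WT median of -0.05.

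Cell type markers moved too. All 10 neuronal markers were above background, with a mean of 12.147 in *P4htm*-/- ipsilateral, 12.138 in *P4htm*-/- contralateral, 12.005 in WT ipsilateral and 12.164 in WT contralateral cortex. The WT ipsilateral array, on which the ribosomal protein genes were high, was the low one for neurons. The median neuronal difference between ipsilateral and contralateral cortex was -0.015 in *P4htm*-/- and -0.195 in WT mice, and 10 of 10 markers were above 0 in *P4htm*-/- minus WT ipsilateral cortex. Macrophage markers, of which 7 of 8 were above background and *Ccr2* was not, averaged 6.801 in *P4htm*-/- ipsilateral and 5.481 in *P4htm*-/- contralateral cortex, against 6.894 in WT ipsilateral and 5.524 in WT contralateral cortex. They were high on both injured sides, whereas the ribosomal protein genes were high on 1. Microglial markers, 9 of 9 measured above background, had a median difference of 0.26 in both genotypes. Neutrophil markers, of which *Camp* and *Mmp8* were not above background, averaged 6.073 in *P4htm*-/- ipsilateral and 5.27 in *P4htm*-/- contralateral cortex, against 5.897 in WT ipsilateral and 4.963 in WT contralateral cortex. The 6 choroid plexus markers measured were above 0 on the injured side of both genotypes, with medians of 0.52 in *P4htm*-/- and 0.63 in WT mice, and 1 of 6 was above 0 in *P4htm*-/- minus WT ipsilateral cortex, where their median was -0.15. Among them *Ttr*, which encodes transthyretin, read 13.62 in *P4htm*-/- ipsilateral and 9.03 in *P4htm*-/- contralateral cortex, against 14.06 in WT ipsilateral and 8.71 in WT contralateral cortex. Of the 7 oligodendrocyte markers 0 were above 0 between the genotypes on either side, with medians of -0.19 in ipsilateral and -0.16 in contralateral cortex. Astrocyte markers had ischemia medians of 0.02 in *P4htm*-/- and -0.04 in WT mice, but they were split. Below 0 were 3 of 7 in *P4htm*-/- and 4 of 7 in WT mice, while *Gfap* was at 1.83 and 2.13. Endothelial markers had a median of 0.24 in both genotypes. Markers of meninges and fibroblasts had 0.63 in *P4htm*-/- and 0.505 in WT mice, and 1 of 3 red cell markers was above background. Of all genes, 41.7% were above 0 in ipsilateral minus contralateral cortex in *P4htm*-/- and 45% in WT mice. In *P4htm*-/- minus WT cortex 46.9% were above 0 on the ipsilateral and 43.1% on the contralateral side. The part of cell composition in the ribosomal values was not tested.

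The start sites of the members are of interest because the pyrimidine run at the start of ribosomal protein mRNAs is what mTOR signaling acts on. RefSeq promoter entries on GRCm38.p6 were found for 43 of the 49 members. A run of at least 8 pyrimidines within 10 bases before to 20 bases after an annotated start was present in 17 of the 43 members, or 39.5%, against 13% of 27025 genes. The following 4 starts with such a run are given with the run in capitals. They belong to genes of both subunits that were higher on the WT injured side by the probe set used. *Rps10* also has a probe set of low value at -0.34 in that comparison, while its others lay between 0.16 and 0.29.
Rpl35 (chr2:39005112-39005141, minus strand): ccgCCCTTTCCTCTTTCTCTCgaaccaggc
Rpl7a (chr2:26910797-26910826, plus strand): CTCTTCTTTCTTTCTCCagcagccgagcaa
Rps10 (chr17:27635225-27635254, minus strand): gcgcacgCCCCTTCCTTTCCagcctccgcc
Rps27 (chr3:90213629-90213658, minus strand): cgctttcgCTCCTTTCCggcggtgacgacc

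Starts without such a run are shown for 3 genes at the ends of the WT comparison, the highest member of each subunit and the lowest. *Rps27l* has a second annotated start, which also lacks the run.
Rps27l (chr9:66946076-66946105, plus strand): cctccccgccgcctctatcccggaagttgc
Rplp0 (chr5:115559457-115559486, plus strand): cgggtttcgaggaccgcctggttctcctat
Rps28 (chr17:33824543-33824572, minus strand): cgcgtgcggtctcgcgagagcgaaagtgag

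Rps27 and its copy Rps27l differ in this feature, as the printed starts show. Among the members above background, the 17 with a run had a median of 0.22 in WT ipsilateral minus contralateral cortex, and the 23 without one had a median of 0.24. Between the genotypes in ipsilateral cortex the medians were -0.23 with and -0.25 without a run. The range in WT was 0.12 to 0.38 with a run and -0.07 to 0.91 without, so both ends of the list fell among genes without it. Only annotated starts and runs of at least 8 pyrimidines were searched, so shorter runs and runs at other starts were not counted. The starts used in cortex were not measured. The letters CTTCCG or their reverse complement CGGAAG, the core that ETS family factors bind, were present within the 300 bases around a start in 30 of 43 members, or 69.8%, against 18.8% of all genes. The 28 members above background with these letters had a WT median of 0.22 and the 12 without them one of 0.27. TATAAA or TTTATA was present in 14% of the members and in 15.7% of all genes. A match of letters is a description of the sequence and not of a bound factor.

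Genes that make ribosomes were described beside the genes of the ribosome itself. Of 64 biogenesis factors, 63 were above background, with a median of 0.07 in WT ipsilateral minus contralateral cortex. There 45 were above 0, where 45% of all genes were. Past 1.2-fold 11 were higher and 1 was lower, where 12.4% of all genes were higher and 9.11% were lower. *Nip7*, a factor of 60S maturation, read 9.10 in WT ipsilateral and 8.71 in WT contralateral cortex, and *Riok2*, a kinase of 40S maturation, read 8.58 in WT ipsilateral and 8.22 in WT contralateral cortex. *Nop10*, of the pseudouridylation complex, had 11.46 and 11.67 in *P4htm*-/- ipsilateral and contralateral cortex, and 11.90 and 11.58 in WT ipsilateral and contralateral cortex. *Nolc1*, a nucleolar phosphoprotein, was the lower one, at -0.29. Between genotypes in ipsilateral cortex the biogenesis list had a median of -0.04, and 6 of its 63 genes were past 1.2-fold lower, where 10.9% of all genes were. The lowest was *Riok2* at -0.50. In *P4htm*-/- mice *Ddx21*, a nucleolar helicase, was the gene past 1.2-fold higher, with 7.51 in ipsilateral and 6.95 in contralateral cortex. The 17 RNA polymerase I genes had a median of -0.06 in *P4htm*-/- mice, with 16 below 0, where 54.7% of all genes were. In WT mice their median was 0.08. *Polr2h*, a subunit shared by all 3 nuclear RNA polymerases, read 9.02 in WT ipsilateral and 8.65 in WT contralateral cortex.

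Translation factors were described in the same way. The 31 initiation factors had a WT median of 0.08 and a median of -0.02 between genotypes in ipsilateral cortex. *Eif2s2*, which encodes a subunit of eIF2, was the initiation factor past 1.2-fold higher in WT mice, with 11.85 in ipsilateral and 11.43 in contralateral cortex. *Eif3h*, *Eif3k* and *Eif3m*, subunits of eIF3, were the 3 past 1.2-fold lower in *P4htm*-/- ipsilateral cortex, at -0.36, -0.27 and -0.27, which is 3 of 31 where 10.9% of all genes were past that limit. The 10 elongation genes had a WT median of 0.025. *Eef1a1*, an elongation factor whose mRNA also begins with a pyrimidine run, read 14.05 in *P4htm*-/- ipsilateral cortex, against 14.06 in WT ipsilateral cortex, and 14.01 on both contralateral arrays. *Eef2*, the translocation factor, read 12.37 and 12.35 in *P4htm*-/- ipsilateral and contralateral cortex and 12.28 on both WT arrays. Neither had the profile of the ribosomal protein genes, although *Eef1a1* lies near the top of the range. *Eef1e1*, the gene of this list past 1.2-fold higher in WT mice, did. It read 10.13 and 10.06 in *P4htm*-/- ipsilateral and contralateral cortex, and 10.51 and 10.10 in WT ipsilateral and contralateral cortex. *Eef1b2* and *Eef1d* were also highest on the WT ipsilateral array, with WT differences of 0.11 and 0.12. Both were at -0.20 between genotypes in ipsilateral cortex. Between genotypes in ipsilateral cortex 7 of the 10 elongation genes were below 0 and 3 above, where 50.8% of all genes were below and 46.9% above. The 22 genes of translational control and mTOR had a WT median of 0.00. *Eif4ebp1*, the repressor of eIF4E, read 7.28 in *P4htm*-/- ipsilateral and 6.68 in *P4htm*-/- contralateral cortex, and 7.59 in WT ipsilateral and 6.62 in WT contralateral cortex, so it was higher on the injured side of both genotypes.

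Lists of other large complexes had medians of the same sign as the ribosomal protein genes in both comparisons that use the WT ipsilateral array. The 76 mitochondrial ribosomal protein genes had a median of -0.25 between the genotypes in ipsilateral cortex, with 70 below 0, where 50.8% of all genes were. In WT ipsilateral minus contralateral cortex their median was 0.15, with 67 above 0, where 45% of all genes were. In *P4htm*-/- mice their ipsilateral minus contralateral median was -0.085, with 63 of 76 below 0, where 54.7% of all genes were. The cytosolic genes had a median of -0.03 there. The 42 genes of the proteasome list had medians of 0.00 in *P4htm*-/- and 0.18 in WT mice, and of -0.21 between genotypes in ipsilateral cortex. This list was taken by symbol and includes activators and *Psmc3ip* and *Psme3ip1*, whose proteins are not proteasome subunits. Whether the cytosolic ribosomal protein genes differed from these lists was not tested.

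**Figure D5:**
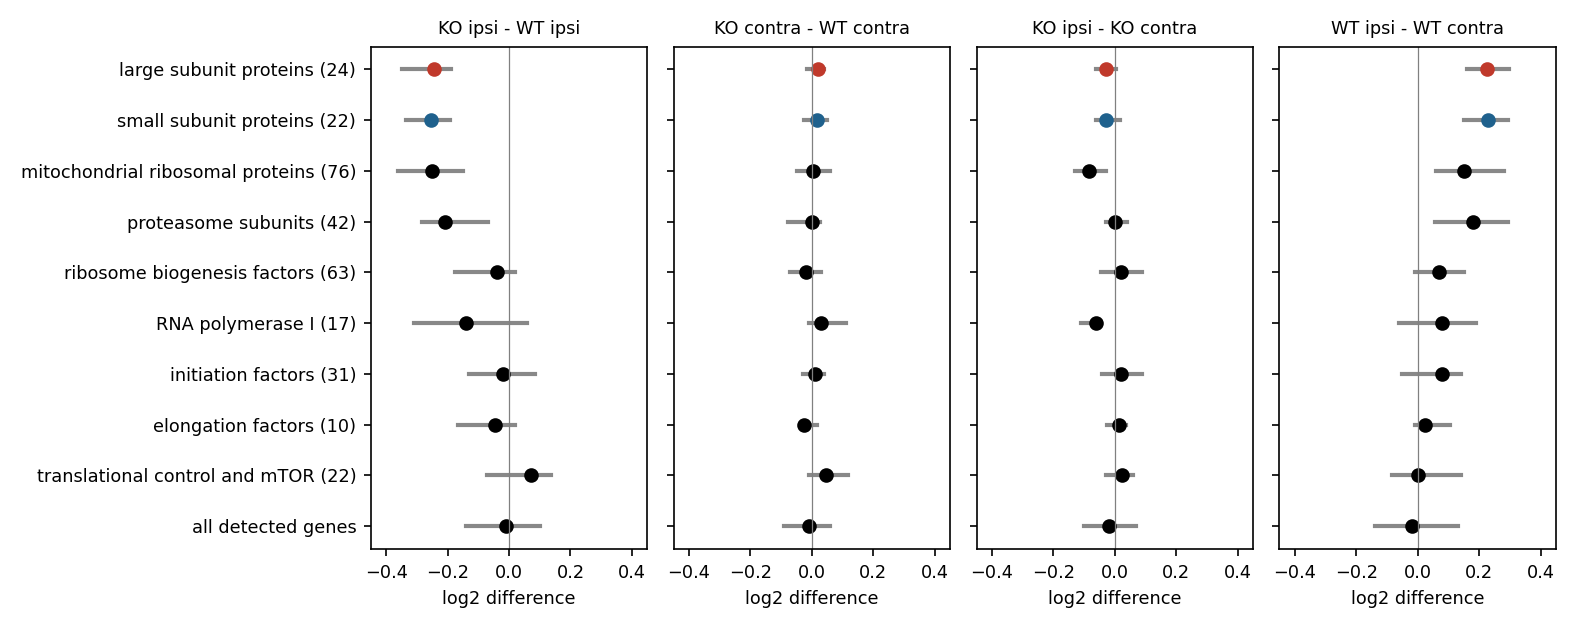
Median log2 difference (point, horizontal axis) and range between the quartiles (grey bar) for both subunits and for related gene lists, with the number of genes above background, in 4 comparisons of *P4htm*-/- (KO) and WT arrays. Both subunits, the mitochondrial ribosomal proteins and the proteasome list lie left of 0 in the first panel and right of 0 in the last. All lists lie near 0 in the contralateral comparison of genotypes.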

How the data were processed

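Expression was measured on 1 Affymetrix Mouse Genome array for each of 4 conditions, each a pool of 4 mice. The deposited values were made with RMA, as the submitters' processing notes say, and the methods name GenePattern for the normalization (versions not given in the sources used here). No source states the log base, and the deposited values were read as log2 because they run between 2.51 and 14.9. RMA equalizes the distributions of the arrays, so a change shared by all genes would be removed. Of 45101 probe sets, 34958 name 1 gene, 932 name several and 9211 have no name in the annotation used. Symbols were updated by Entrez gene ID for 34754 probe sets through a RefSeq gene table for GRCm38.p6, which otherwise served only for spans and gene order, since the files name no build.

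Differences of log2 values were computed per gene. With 1 array per condition there is no replicate, no sequencing depth and no test, and precision is limited by the number of arrays. A gene entered a comparison when at least 1 compared array lay above background. The members, gene lists and comparisons were chosen with earlier results of these data known. Genes named are the 5 highest and lowest members of each difference, copies with their relatives, stalk genes, *Rpsa* and *Rps6*, members next to the fold limits and up to 4 genes of each related list past 1.2-fold. *Rps16*, *Fau*, *Eef1a1*, *Eef2*, *Eef1b2*, *Eef1d*, *Psmc3ip*, *Psme3ip1*, *Rpl7a*, *Rps10*, *Rps18* and those with properties described were named outside that rule. Counting was tested on simulated data. Alternatives were other probe sets per gene, median centring, cyclic loess, centring by level and by span, and no filter. The mean over the probe sets of a gene took in those under background. The tools were limma 3.58.1 in R 4.3.3, and Python 3.11.15 with pandas 2.3.3, numpy 2.4.6 and matplotlib 3.10.9.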

Additional observations from a re-analysis of the deposited data

Results flagged for a closer look

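The median ischemia difference of the ribosomal protein genes had opposite signs in the 2 genotypes, at -0.03 in *P4htm*-/- and 0.225 in WT mice. The *P4htm*-/- value lay near the median of all genes there, -0.02, and it became 0.00 after centring by gene span, with 20 members above 0 and 21 below. After centring by level and then by span, chosen after seeing the data, 23 were above 0 and 22 below. For the large subunit it was -0.03 in *P4htm*-/- and 0.225 in WT mice, and for the small subunit -0.03 in *P4htm*-/- and 0.23 in WT mice. With 1 array per condition, this difference between genotypes was not tested.

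*Rpl12*, of the base of the elongation factor stalk, differed by -0.37 in *P4htm*-/- and by 0.36 in WT mice. *Rpl14*, of the large subunit, differed by -0.39 in *P4htm*-/- and by 0.26 in WT mice. Each of these rests on 1 probe set of low value, and their differences between genotypes were not tested.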

How the results depend on the processing

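The medians kept their direction where they were beyond 0.1. That of the WT ischemia difference was 0.15 to 0.28 and that of *P4htm*-/- minus WT ipsilateral cortex -0.295 to -0.15, with both extremes nearest 0 under centring by gene span. Span centring also gave -0.16 for the genotype difference of the response, and for the large subunit 0.145 in WT mice, -0.14 between genotypes in ipsilateral cortex and -0.15 in the response. The small subunit had -0.17 in the response under span centring, and 0.132 in WT mice and -0.167 in the response with the mean of probe sets. The small medians lay between -0.035 and 0.00 for *P4htm*-/- ischemia and between -0.002 and 0.03 for the contralateral genotypes. Counts past 1.2-fold moved more. After span centring 7 members were higher in WT mice, 9 lower in *P4htm*-/- minus WT ipsilateral cortex and 10 lower in the difference between genotypes of the ischemia response. After level centring 26 were higher in WT mice, and after both, an alternative chosen after seeing the data, 10 were higher there and 14 lower in the genotype difference of the response. With plain probe sets only, which leave 20 members, 7 were higher and 2 lower in WT mice, 1 higher in *P4htm*-/- mice, 1 lower in *P4htm*-/- contralateral cortex, 1 higher and 11 lower in *P4htm*-/- ipsilateral cortex, and 1 higher and 12 lower in the genotype difference. The mean of probe sets put 2 members past the limit in *P4htm*-/- contralateral cortex, and no filter put 1 lower in WT mice, since it admits *Rpl3l*. In the genotype difference of the response, *Rps20* was at 0.145 with the mean of probe sets and *Rps24* at 0.24 with plain probe sets. Both were reversed. The mean of *Rps20* takes in probe sets under background on all arrays, at 0.43 and 0.74, while those above it gave -0.29 and -0.30. The causes for *Rps24*, *Rps18* and *Rps10* were not tested.

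No paired analysis was possible because each condition has 1 array and the labels carry no replicate numbers. For the same reason no array could be left out. Median centring and cyclic loess moved no count past 1.5 times. Signals near the limits of the array restrict low members such as *Rpl12* and high ones such as *Rps29*.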

Other observations

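The 4 members above background with the highest *P4htm*-/- minus WT contralateral difference, *Rpl14* at 0.30, *Rps27l* at 0.15, *Rps25* at 0.14 and *Rpsa* at 0.11, all lie on chromosome 9, which also carries *P4htm*. The fifth member on that chromosome, *Rpl4*, was at 0.02 and ranked 21 among the 46 members. These ranks depend on the probe set used, since the other probe sets of *Rps27l* gave 0.00 and 0.06. Unused probe sets above background gave 0.19 for *Rps3*, on chromosome 7, and 0.21 for *Rps4x*, on the X chromosome. In the RefSeq gene order, 257 genes lie between *Rpsa* and *P4htm*, 272 between *Rpl14* and *P4htm*, 766 between *Rps27l* and *P4htm*, and 1310 between *Rps25* and *P4htm*. In ipsilateral cortex the same 5 members were below 0, with a median of -0.35, against -0.24 for the 41 members elsewhere. There 45 of the 46 members were below 0, so that sign does not set these 5 apart. The 781 genes above background on chromosome 9 had a median of -0.01 on either side, as did the 12667 genes elsewhere. This pattern was noticed in the values and was not tested.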
